A study of Mus musculus with 4 samples.

Results

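RUNX1 occupancy at the genes of Kruppel-like factors was examined in the fetal ovary, in a list of RUNX1 ChIP-seq peaks. The 10 genes Klf2, Klf3, Klf4, Klf5, Klf6, Klf7, Klf9, Klf10, Klf12 and Klf13 were taken with every peak whose nearest transcription start site (TSS) was theirs, measured from the peak edge on the curated RefSeq transcripts, and with every peak inside their gene bodies. This gave 21 peaks of the 10494 in the list, of which 20 were nearest to a member TSS and 1 lay in a member gene body but nearer to another TSS. Because the peaks themselves chose the members, their number and strength are described here without a test. The material was ovaries of CD1 mouse embryos at E14.5, female (XX), freed of the mesonephros and pooled, with 80 to 100 ovaries for each ChIP by the sample labels (the paper's methods give a larger number), and no genetic change or treatment in any group. From this tissue came 2 RUNX1 ChIP libraries and 2 input libraries. The authors merged the RUNX1 replicates before they called peaks, so a peak has 1 fold and 1 p-value, with no value per replicate and no error. Whole ovaries were used, so the list does not say in which cells of the ovary a peak arose, and RNA was not measured in this experiment.

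Kruppel-like factors are transcription factors with zinc fingers at the carboxyl end that bind CACCC boxes and GC-rich boxes, the same kinds of sites that SP factors bind. They differ in the rest of the protein. Klf2, Klf4, Klf5, Klf6 and Klf7 encode mainly activators. Klf3 and Klf12 encode repressors that recruit the corepressor CtBP, and Klf9, Klf10 and Klf13 encode factors that bind the corepressor SIN3A. RUNX1 belongs to the RUNX factors, which bind a short core, written here as TGTGGT or TGCGGT. In the mouse fetal ovary RUNX1 is found in pre-granulosa cells, the supporting cells that go on to become granulosa cells.

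The 4 peaks printed first are shown because they held 7 of the 13 RUNX cores found in the member peaks. All lay over 10 kb from the start of their gene. All sequences are of the GRCm38 (mm10) reference, forward strand, 5′ to 3′, in lower case. They are of the C57BL/6J reference and not of the CD1 embryos. Capitals mark RUNX cores (TGTGGT and TGCGGT, or ACCACA and ACCGCA when read from the other strand) and, where present, a forkhead site (TGTTTAC or TATTTAC), a TEAD site (AGGAATG or GGGAATG) and a GATA site (AGATAA or TGATAA) on either strand. The Klf9 peak is chr19:23056883-23057182, and the Klf4 peaks are chr4:55542805-55543104, chr4:56050419-56050718 and chr4:56070683-56070982.
Klf9, 84.0 kb upstream: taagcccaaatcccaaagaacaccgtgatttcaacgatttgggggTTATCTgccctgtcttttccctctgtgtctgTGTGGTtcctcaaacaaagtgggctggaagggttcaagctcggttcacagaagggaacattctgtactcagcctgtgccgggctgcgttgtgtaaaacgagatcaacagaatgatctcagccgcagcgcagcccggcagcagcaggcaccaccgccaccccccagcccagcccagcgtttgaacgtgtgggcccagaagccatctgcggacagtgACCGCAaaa
Klf4, 10.3 kb upstream: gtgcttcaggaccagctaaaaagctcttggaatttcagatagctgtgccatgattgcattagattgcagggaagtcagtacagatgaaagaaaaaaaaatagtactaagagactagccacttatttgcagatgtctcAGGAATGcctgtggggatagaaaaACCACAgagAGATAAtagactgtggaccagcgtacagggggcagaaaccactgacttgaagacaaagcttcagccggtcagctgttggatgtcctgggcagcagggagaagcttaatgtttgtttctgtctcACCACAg
Klf4, 518 kb upstream: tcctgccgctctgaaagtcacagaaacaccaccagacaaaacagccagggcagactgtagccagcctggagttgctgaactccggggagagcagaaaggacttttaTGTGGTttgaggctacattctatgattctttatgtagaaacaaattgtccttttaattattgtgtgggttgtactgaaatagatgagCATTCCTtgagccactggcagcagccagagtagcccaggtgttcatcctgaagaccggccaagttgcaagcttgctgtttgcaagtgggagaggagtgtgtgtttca
Klf4, 538 kb upstream: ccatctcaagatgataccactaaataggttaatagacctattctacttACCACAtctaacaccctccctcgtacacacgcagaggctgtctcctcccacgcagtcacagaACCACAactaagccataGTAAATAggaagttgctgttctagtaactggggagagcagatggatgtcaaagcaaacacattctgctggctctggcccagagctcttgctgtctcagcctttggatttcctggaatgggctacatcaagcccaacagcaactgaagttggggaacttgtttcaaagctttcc
In the Klf4 peak 10.3 kb upstream, a TEAD site, a RUNX core and a GATA site followed each other near the peak midpoint, with 17 bases between the TEAD site and the core and 3 bases between the core and the GATA site. In the Klf4 peak 538 kb upstream, 11 bases separated a RUNX core from the forkhead site. Forkhead factors include FOXL2, which acts in the same ovarian cells. A match is a run of letters and not a measured binding event of the second factor.

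Cores near the genes were fewer, and they are shown as short stretches with the core in capitals because Klf4, Klf5 and Klf13 were the genes that held them. The stretches are chr4:55531425-55531484 in intron 2 of Klf4, chr14:99298507-99298556 upstream of Klf5, chr7:63939374-63939423 upstream of Klf13, chr7:63938837-63938866 in exon 1 of Klf13 and chr7:63897111-63897160 in intron 1 of Klf13.
Klf4, intron 2: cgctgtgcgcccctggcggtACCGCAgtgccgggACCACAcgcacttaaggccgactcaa
Klf5, upstream: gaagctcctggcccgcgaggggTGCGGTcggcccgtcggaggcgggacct
Klf13, upstream: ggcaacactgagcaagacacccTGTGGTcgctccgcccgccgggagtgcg
Klf13, exon 1: acccctgcaagtTGTGGTcgcagttccacc
Klf13, intron 1: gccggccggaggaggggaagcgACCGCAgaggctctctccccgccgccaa
The Klf4 intron peak held both forms of the core, with their starts 14 bases apart. It was also the member peak of lowest fold, at 4.36.

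RUNX1 sat close to the start of 9 of the 10 genes. Of the 21 peaks, 12 lay within 1 kb of a TSS of their own gene, 1 lay between 1 and 10 kb, and 8 lay over 10 kb away, at 5 genes. Klf12 was the member without a peak within 1 kb of a curated TSS. In the list as a whole, 37.4% of the 21000 protein-coding genes had a peak within 1 kb of a TSS and 39.1% were nearest to at least 1 peak, as were 34.6% of all 26180 curated genes. Klf3, Klf4, Klf9, Klf10 and Klf13 were nearest to at least 2 peaks, as were 15.7% of the protein-coding genes nearest to any. The members were chosen by their peaks, so nothing is read from these differences. Of the 12 peaks near a start, 8 had their midpoint upstream and 4 downstream of the TSS. Peaks over the TSS itself were found at 2 genes, Klf2 and Klf10, that is in 2 of these 12 peaks, beside 45.0% of all peaks within 1 kb of a TSS. The other 10 peaks lay beside the start, from 4 bp to 871 bp away.

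**Figure D1:**
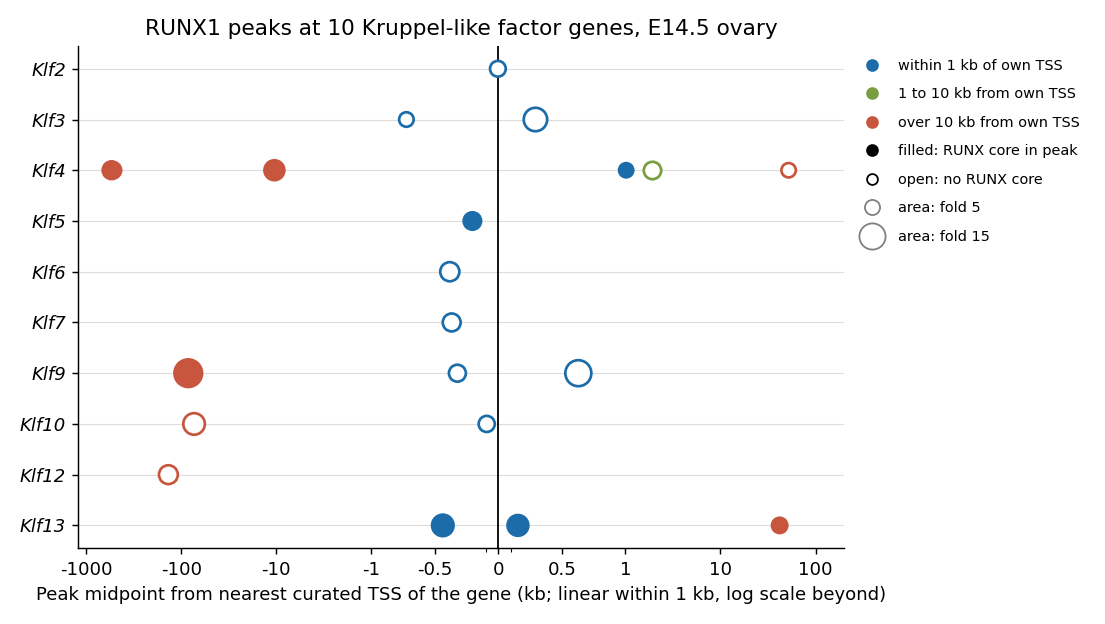
Position of the 21 RUNX1 peaks at the 10 genes, as the distance of the peak midpoint from the nearest curated TSS of the gene in kb (linear within 1 kb, log scale beyond, upstream to the left). Circle area is the fold, filled circles held a RUNX core, and colours give the distance class. The peaks 518 and 538 kb upstream of Klf4 fall on each other at this scale, and Klf12 is the gene with no peak within 1 kb.

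The fold, which is the ratio to background given by the authors' peak caller, ran from 4.36 to 16.66 over the member peaks with a median of 6.88. Over the 10490 peaks on assembled chromosomes the median was 6.41, with quartiles of 5.02 and 8.89, so 13 of the 21 lay above the median of the list and 6 above its upper quartile. Of the 21 member peaks, 8 had a fold of 8 or more, as did 32.1% of all peaks. Among the 7 member peaks over 10 kb from the TSS of any gene, 3 did, beside 31.0% of all such peaks. By group, the SIN3A-binding genes had a median fold of 9.76 over 8 peaks, the CtBP-binding repressor genes 7.78 over 3 peaks and the activator genes 6.63 over 10 peaks. The ranges of the 3 groups overlapped, and the highest fold of the activator genes was 8.64. The medians pool peaks and not genes. Klf9 and Klf13 gave 3 peaks each to the SIN3A-binding group and Klf4 gave 6 to the activator group. The CtBP-binding median was the Klf12 peak. These medians cover only the 10 genes. Outside them, the SIN3A-binding genes Klf11 and Klf14 had peaks of lower fold than this median of 9.76, at 7.69 and 6.85. Klf16, also of the SIN3A-binding kind, and the CtBP-binding repressor gene Klf8 had no peak.

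**Figure D2:**
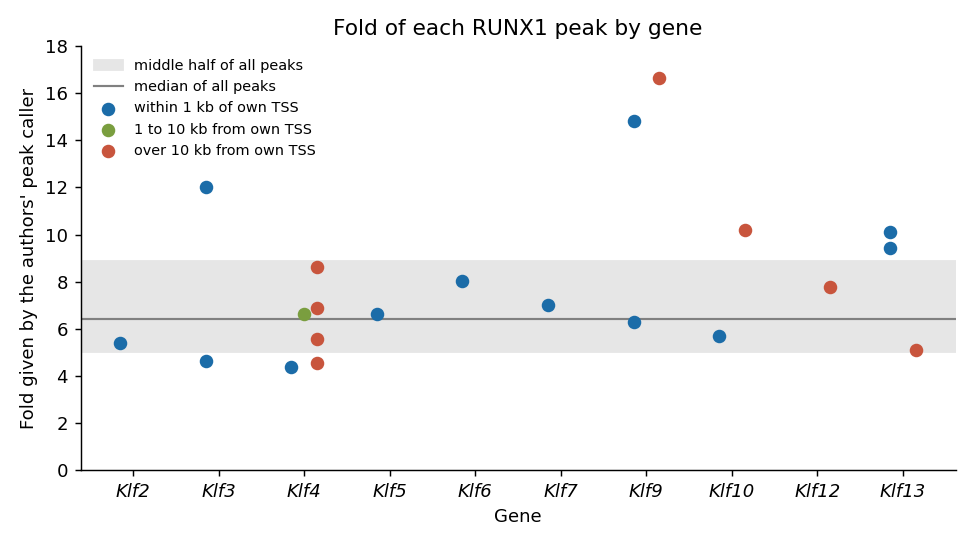
Fold of each RUNX1 peak, by gene, with colours for the distance from the gene's own TSS. The grey line is the median of all peaks (6.41) and the band runs from their lower to their upper quartile (5.02 to 8.89). Klf9 has the highest values, 16.66 and 14.81, and no member peak lies under 4.36.

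Klf9, which encodes a repressor known as a partner of the progesterone receptor, had the highest folds of the 10 genes. Its 3 peaks had folds of 16.66, 14.81 and 6.29, and 8.16% of all peaks had a fold above 14. The peak of fold 16.66 lay 84.0 kb upstream of the TSS, and 94.7% of all peaks had a lower fold. No curated gene start was nearer than Klf9 there, but 910 bp from its edge the predicted gene C330002G04Rik begins, and the next protein-coding start, that of the ion channel gene Trpm3, was 140923 bp away. This peak held TGTGGT and TGCGGT, with 215 bases from the start of the TGTGGT to that of the TGCGGT, as printed above, and a GATA site 25 bases from the TGTGGT. The other peaks stood on both sides of the Klf9 start, at chr19:23140754-23141053, 173 bp upstream, and at chr19:23141707-23142006, 481 bp downstream with its midpoint in the coding part of exon 1. The downstream peak had the higher fold, 14.81 against 6.29, and neither held a RUNX core.

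Klf13 encodes a factor known as a regulator of the chemokine gene RANTES in T cells, and peaks also stood on both sides of its start. The upstream peak, at chr7:63939204-63939503, was 289 bp away and had a fold of 10.11. The other, at chr7:63938612-63938911, had its midpoint in the 5′ UTR of exon 1, its edge 4 bp from the TSS, and a fold of 9.41. These 2 peaks had the smallest p-values among the members, 1.46e-45 and 1.10e-37. Each held 1 TGTGGT. Another peak, of fold 5.09 at chr7:63896897-63897196, lay in intron 1, 41719 bp from the Klf13 start and 513 bp from the start of Gm27252, a gene model within Klf13, and so belonged to Klf13 by its gene body alone. It held 1 TGCGGT and a GATA site.

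Klf10, which encodes a factor known as an early gene of TGF-beta signalling, had 2 peaks. The peak over its start, at chr15:38300654-38300953, had a fold of 5.68, and the peak at chr15:38373702-38374001, 73.0 kb upstream, had a fold of 10.18. The distant peak was thus the stronger of the pair by fold, and the weaker by p-value (2.60e-15 against 4.16e-20). Neither held a RUNX core. The distant peak lay 7621 bp from the start of Gm41306, a predicted gene.

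Klf3, the gene of a repressor best known from blood and fat cells, had peaks on both sides of its start. The upstream peak, chr5:64802647-64802946, lay 575 bp away and had a fold of 4.63. The downstream peak, chr5:64803664-64803963, lay 143 bp away, had its midpoint in intron 1 and reached a fold of 12.03, above 88.0% of all peaks. Neither held a RUNX core. Klf3, Klf9 and Klf13 were the members with at least 2 peaks within 1 kb of the TSS, with peak midpoints 1017, 953 and 592 bp apart. In all, 8.75% of protein-coding genes with a peak within 1 kb of a TSS had at least 2. The downstream peak had 2.60 times the fold of the upstream peak at Klf3 and 2.35 times at Klf9, whereas the ratio was 0.931 at Klf13. Among 461 protein-coding genes with exactly 1 peak on each side of a start, the downstream peak was the stronger in 52.7%, and the folds differed at least 2-fold in 19.5%.

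Klf12, the gene of a repressor of AP-2alpha, had 1 peak, at chr14:100285818-100286117, with a fold of 7.78. From the curated TSS of Klf12 this peak was 136 kb upstream. It covered, however, the start of 3 of the 11 predicted RefSeq transcripts of Klf12, at position 100285891 of chromosome 14, so it is distant or at a start depending on the gene models used. In GENCODE, the nearest Klf12 start was 1139 bp from the peak. Of all peaks over 10 kb from any curated TSS, 3.23% covered a predicted TSS. The peak had a GC content of 72.0% and no RUNX core. The 226 bases of the peak upstream of this predicted start, chr14:100285892-100286117, are shown as an example of a GC-rich distant peak without a core, on the forward strand and with no capitals.
Klf12, upstream of the predicted start: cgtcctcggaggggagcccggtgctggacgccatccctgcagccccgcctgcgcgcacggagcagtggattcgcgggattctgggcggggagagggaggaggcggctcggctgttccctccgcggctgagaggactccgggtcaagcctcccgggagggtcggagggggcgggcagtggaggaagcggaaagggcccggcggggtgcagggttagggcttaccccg

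Klf4, the gene of a factor used to reprogramme cells to pluripotency and expressed in many epithelia, had 6 peaks, the most of the 10 genes. Only 3 protein-coding genes were nearest to at least 6 peaks, the others being Nfia and Tns3, which is 0.0366% of the 8203 protein-coding genes nearest to at least 1. The limit of 6 is the Klf4 count itself, and Klf4 was chosen with its peaks known, so nothing is read from this share. Klf4 stands in a gene-poor stretch. Its TSS was the nearest curated start over 661 kb of sequence, more than for 97.7% of genes, and the nearest protein-coding starts on either side were those of Rad23b, 182 kb away beyond the 3′ end of Klf4, and Actl7b, 1210 kb away on the upstream side. For comparison, this length was 798 kb for Nfia and 899 kb for Tns3, and the median was 42.5 kb for protein-coding genes. Counted per length of such sequence, Klf4 had 9.07 peaks per Mb, which was in the middle of the 10 genes. Klf2, Klf3, Klf10, Klf9 and Klf13 had more, from 11.0 for Klf2 to 57.2 for Klf13, and Klf5, Klf6, Klf7 and Klf12 had fewer, from 4.74 for Klf5 down to 1.19 for Klf12. All 10 genes were chosen with peaks, and the rate over all genes was not computed. The order therefore does not say whether the Klf4 rate is ordinary. For a gene with 1 peak, the rate depends on the length alone.

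Of the 6 Klf4 peaks, some stood in the gene and some far off. Inside the gene, a peak of fold 6.63 at chr4:55530411-55530710 had its midpoint in the coding part of exon 3, 1765 bp from the TSS, and a peak of fold 4.36 at chr4:55531305-55531604 had its midpoint in intron 2, 871 bp from the TSS. The exon 3 peak held no core. Upstream by 10.3 kb stood the Klf4 peak of highest fold, at 8.64, with 2 TGTGGT cores. By the p-value of the peak caller it came after the exon 3 peak (2.88e-17 against 2.38e-21). Far upstream, 518 and 538 kb from the TSS, were peaks of fold 5.55 and 6.88, 20.3 kb apart by their midpoints, with 1 and 2 TGTGGT cores. Downstream, 51.9 kb from the TSS, was a peak of fold 4.53 at chr4:55480291-55480590 with no core. The far upstream pair belonged to Klf4 by distance alone. In the whole list 12 peaks, 0.114%, were over 500 kb from any curated TSS, and 2 of them were these. With predicted gene models counted, the nearest starts to the 4 distant peaks were those of Gm34343, 3913 bp from the peak of fold 8.64, of Gm12519, 49575 and 69839 bp from the far upstream pair, and of Gm22150, 11132 bp from the downstream peak.

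**Figure D3:**
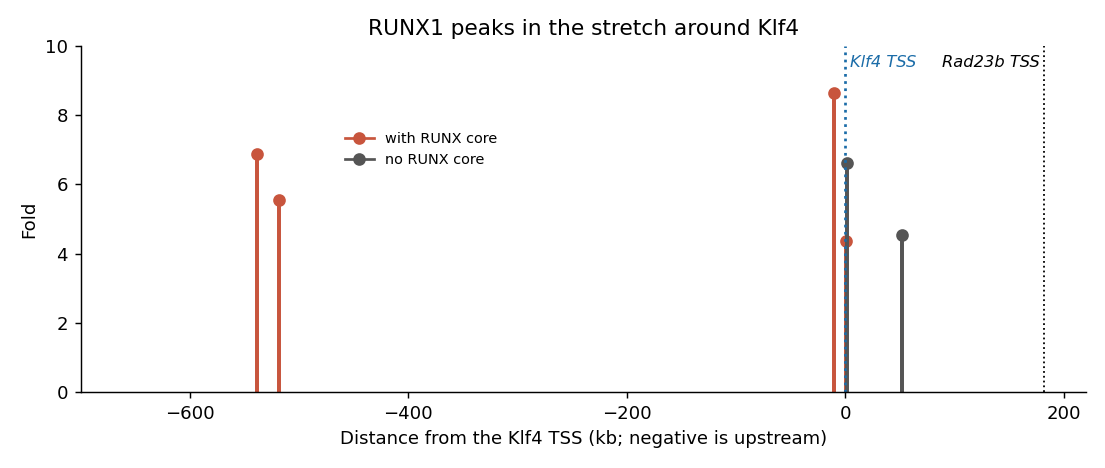
The 6 RUNX1 peaks nearest to Klf4 as lines whose height is the fold, against the distance from the Klf4 TSS in kb, with dotted lines at the starts of Klf4 and Rad23b. The peaks 518 and 538 kb upstream and 10.3 kb upstream held RUNX cores, as did the peak of fold 4.36 in the gene, which stands almost at the same place as the peak of fold 6.63.

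The remaining activator genes had 1 peak each, all near the start. Klf2, an endothelial and T cell gene, had a peak of fold 5.41 over its TSS at chr8:72318909-72319208. Klf5, a gene of proliferating epithelia, had a peak of fold 6.63, 55 bp upstream at chr14:99298337-99298636, with 1 TGCGGT. Klf6, a broadly expressed gene that rises early after stimulation of many cells, had a peak of fold 8.02, 233 bp upstream at chr13:5860957-5861256. Klf7, a gene best known from neurons, had a peak of fold 7.03, 219 bp upstream at chr1:64121608-64121907. The Klf7 peak covered the start of 1 predicted Klf7 transcript and held a forkhead site but no RUNX core, and the peaks of Klf2 and Klf6 held neither. The peak of Klf5 and the exon 3 peak of Klf4 had the same fold and the same p-value, 2.38e-21. Such ties are common, as 95.8% of all peaks shared both values with another peak. The nearest peak that belonged to some other gene was from 99208 bp (Klf2) to 851160 bp (Klf12) from the start of each member, and for Klf12 this was the Klf5 peak.

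RUNX cores were found in 9 of the 21 member peaks (42.9%), beside 39.9% of all peaks. These 9 peaks belonged to 4 genes, Klf4, Klf5, Klf9 and Klf13, and the peaks of the other 6 genes held none. There were 13 cores in all, 9 TGTGGT and 4 TGCGGT. Their centres lay at a median of 45 bp from the peak midpoint, 7 of the 13 within 50 bp. For the 5193 cores of all peaks the median was 51 bp, with 49.4% within 50 bp. The form TGTGGT was in 7 of the 21 peaks (19.5% of all peaks) and TGCGGT in 4 (23.7% of all peaks). Within 1 kb of any TSS, TGTGGT was in 3 of 13 member peaks, beside 13.2% of all such peaks. Over 10 kb away it was in 4 of 7, beside 43.9%. Peaks with at least 2 cores numbered 4, with 3 at Klf4 and 1 at Klf9, beside 8.26% of all peaks. Where no gene start was within 10 kb, 3 of 7 member peaks held at least 2, beside 18.3% for the list. In the RefSeq promoter set (GRCm38.p6), where a promoter has 250 bases before the start and 50 from the start on, 8 of the 10 genes were found and 0 of the 8 promoters held a core, beside 22.4% of 32851 promoters. The core in exon 1 of Klf13 lay past the downstream end of this window. Klf5 and Klf10 were missing from the set, and the core of the Klf5 peak lay in the 250 bases before the curated Klf5 TSS. The count of 0 therefore leaves out a member with a core at that distance.

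**Figure D4:**
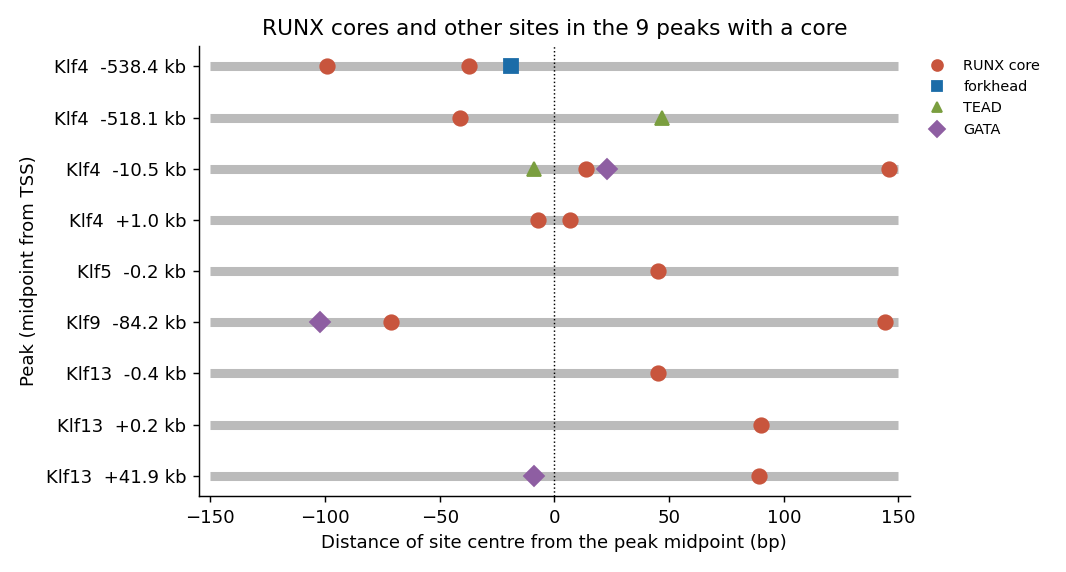
Places of RUNX cores, forkhead, TEAD and GATA sites on either strand in the 9 member peaks that held a RUNX core, as the distance of the centre of the site from the peak midpoint in bp. Grey bars are the 300 bp peaks, named by gene and midpoint distance from the TSS. Of the 13 cores, 7 lie within 50 bp of the midpoint.

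Cores were also counted by distance and base composition. By the nearest TSS of any gene, 13 of the 21 member peaks lay within 1 kb (76.0% of all peaks) and 7 over 10 kb away (15.9% of all peaks). Of the 13, 5 held a core, beside 34.2% of all such peaks, and of the 7, 4 held one, beside 61.1%. Neither count stands out from the list. Among the 7 distant peaks, the 4 with a GC content under 60%, at Klf4 and Klf9, all held cores, and the 3 with a GC content of 60% or more, at Klf4, Klf10 and Klf12, held none. Over all distant peaks the shares were 69.5% and 38.7%, so the list differed in the same direction. The division at 60% was chosen after the values were seen, and the Klf10 peak, at 60.7%, was close to it. The peaks near member starts had GC contents from 62.3% to 74.3% and a ratio of observed to expected CpG from 0.763 to 1.04. The 3 upstream Klf4 peaks had GC contents of 45.3%, 47.3% and 47.7% and CpG ratios of 0.134, 0.183 and 0.179, and the next member peak, the distant one of Klf10, had a CpG ratio of 0.479.

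**Figure D5:**
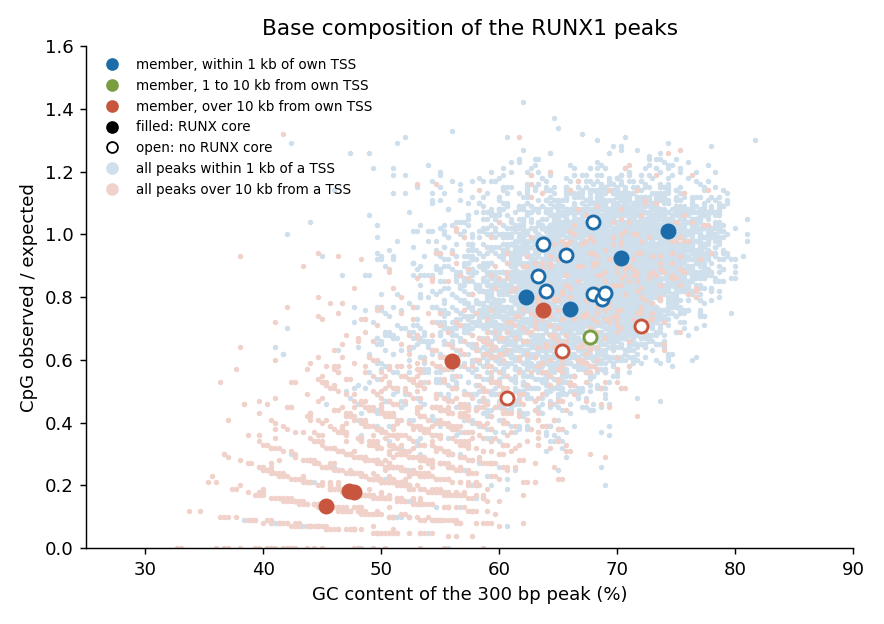
Ratio of observed to expected CpG against GC content in percent for the 300 bp peaks. Large circles are the 21 member peaks, filled where they held a RUNX core, and small dots are all peaks within 1 kb (blue) and over 10 kb (red) from a TSS. The 3 upstream Klf4 peaks lie at GC contents of 45.3% to 47.7%, among the other distant peaks.

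The boxes that Kruppel-like and SP factors bind were searched as CCACACCC, CCACCC and GGGCGG on both strands. CCACACCC, which shares letters with TGTGGT when read from the other strand, was in 0 of the 21 member peaks and 3.04% of all peaks. CCACCC was in 5 (34.9% of all peaks) and GGGCGG in 15 (57.0% of all peaks). GGGCGG, the GC box, was in 12 of the 13 member peaks within 1 kb of a TSS and in 65.7% of all such peaks. Forkhead sites were in 2 member peaks (3.24% of all peaks), TEAD sites in 3 (7.06%), all at Klf4, and GATA sites in 3 (8.33%). Of the 13 member peaks within 1 kb of a TSS, 1, 0 and 1 held these sites, beside 2.22%, 5.45% and 4.23% of all such peaks. Of the 7 member peaks over 10 kb from any TSS, 1, 3 and 2 held them, beside 7.11%, 13.6% and 25.4% of all such peaks. Whether distance from a TSS accounts for the member counts was not tested. The ETS site CCGGAAGT, the NR5A site CAAGGTCA or CAAGGCCA, and the CTCF site were in none of the 21 peaks, beside 4.66%, 4.42% and 1.35% of all peaks. CCAAT, the NFY site, was in 5 (23.5%), all within 1 kb of a start.

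Fold and p-value ordered the member peaks differently. By p-value the distant Klf9 peak of fold 16.66 stood at rank 2702 of the list (8.83e-24), behind 4 other member peaks. These were both Klf13 peaks at the start, at ranks 597 and 955, the downstream Klf9 peak, at rank 1379 (1.60e-32), and the upstream Klf9 peak of fold 6.29, at rank 2673 (5.05e-24). The distant peaks of Klf10 and Klf12 had folds above the median of all peaks and p-values of 2.60e-15 and 1.73e-12. No member peak over 10 kb from its TSS was above rank 2702 by p-value.

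Among the other genes of the family, 4 of the 7 remaining Klf genes were nearest to a peak, beside 39.1% of all protein-coding genes. Klf1, the erythroid factor gene, had a peak of fold 8.54 in exon 2, 957 bp from the TSS. Klf11, Klf14 and Klf15 had peaks of fold 7.69, 6.85 and 6.48 within 1 kb of their starts. Klf8, which encodes a CtBP-binding repressor like Klf3 and Klf12, Klf16 and Klf17 had none past the limits of the list. Together with the 9 SP genes, of which 8 were nearest to a peak, the 16 family genes outside the 10 had 15 peaks at 12 genes, with a median fold of 6.85, against 6.88 for the 21 member peaks.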

How the data were processed

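RUNX1 ChIP-seq of E14.5 ovaries was analysed from the deposited peak list. Per the paper's methods and the submitters' processing notes, the authors mapped single-end reads to mm10 with Bowtie 1.2 at unique positions, removed duplicates with Picard 1.110, merged the 2 RUNX1 replicates, called peaks with HOMER 4.9, resized every peak to 300 bp and dropped peaks with too little enrichment, judged against input and against nearby sequence. The lowest fold in the list is 4.01. The deposited fold is a ratio from the peak caller, and the p-value is from the same output. Read depth is not in the list, so precision per peak is unknown. Repeats without unique reads cannot hold peaks.

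Coordinates (mm10) match GRCm38, and are counted from 1. The 4 peaks outside assembled chromosomes were left out. Gene models were 45756 curated RefSeq transcripts of 26180 genes. Distances run from the peak edge to the TSS, features are at the peak midpoint. Motifs were counted on both strands with Python 3.11.15 and pandas 2.3.3, and assignment and motif search were tested on simulated data. Promoters are from RefSeq (GRCm38.p6), without Klf5 and Klf10. The members, groups, gene lists and motifs were chosen with earlier results of these data known. All members and every family gene with a peak are named. FOXL2 binding and expression arrays were not analysed here. Alternatives were other gene models, distance limits, peak limits and forms of the core.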

Additional observations from a re-analysis of the deposited data

How the results depend on the processing

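No paired analysis was possible because the replicates were merged before peaks were called and no result comes from a test, and for the same reason no replicate could be left out. Of 30 alternatives, 21 left a count within 1.5 times that reported, or a median or share within its 95% interval. With 21 peaks that interval is wide, and a share of 28.6% with a core in the middle 100 bases was still within it. The interval treats the peaks as a random draw, which they were not. The alternatives also reuse the same peaks, so a value within the interval says little about stability. The 21 member peaks became 13 with a TSS within 10 kb, 8 in gene bodies alone, 8 at a fold of at least 8 and 7 at a p-value under 1e-20. With predicted RefSeq transcripts they were 15, as 6 distant peaks at Klf4, Klf9 and Klf10 were then nearest to predicted genes. The number of genes with a peak within 1 kb of a TSS went from 9 to 4 at a fold of at least 8 and to 3 at a p-value under 1e-20. With predicted transcripts it was 10, and with GENCODE starts, an alternative added after seeing the data, 9. The share of member peaks with a core was 42.9%, and 19.0% with TGCGGT alone. Of the original 21 peaks, 33.3% lay over 10 kb from any curated TSS, and 14.3% did so with predicted transcripts. Those in the 14.3% were the far upstream pair and the downstream peak of Klf4, which were then nearest to predicted genes and no longer member peaks. The family genes outside the 10 with a peak went from 12 to 5 at a fold of at least 8.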

Other observations

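The SP genes, whose products bind the same boxes as Kruppel-like factors, were nearest to RUNX1 peaks at 8 of 9 genes, beside 39.1% of all protein-coding genes. The SP genes were chosen with earlier results of these data known. The highest folds lay over 1 kb from the start. Sp7, the bone factor gene, had a peak of fold 15.43, 9924 bp upstream, with 1 TGTGGT and 1 TGCGGT. Sp5, a gene known as a WNT target, had a peak of fold 13.27, 2581 bp upstream, with no core. Sp3 had 3 peaks. Those of fold 10.88 and 6.73 lay at different annotated starts of the gene, 35 bp and 202 bp away, and that of fold 8.15 lay 57.8 kb upstream with 1 RUNX core. Sp1, Sp2, Sp4, Sp6 and Sp8 had peaks of fold 4.07 to 10.05, and Sp9 had none.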
